A study of Glycyrrhiza uralensis with 12 samples.

Results

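The salt effect in G2-inoculated *G. uralensis* seedlings was read from the 3 S + G2 and the 3 CK + G2 libraries, which are 6 of the 12 libraries of the series. The members were taken by their treatment labels alone and no measured value was used. CK + G2 seedlings received 300 ml of distilled water with *B. cereus* G2 at 100000000 cfu/ml and no salt. S + G2 seedlings received the same volume and dose of G2 together with 75 mM NaCl. The other libraries, 3 of CK (water) and 3 of S (75 mM NaCl), held no G2 and are used only to set the same salt contrast beside the inoculated one. All seedlings were 45 days old and were raised from wild seed in sterilized sand. The salt of S and S + G2 was in the pre-irrigation water at sowing, and G2 was watered in when the third true leaf had appeared. Each replication was a pair of pots, and 3 pots per treatment were dried for growth measures. From the other pots part of the leaves was taken for chlorophyll and the rest of the material was frozen. Seedlings were ground for RNA, so a library mixes roots, stems and leaves of many plants, perhaps with part of the leaves removed. A change in the share of an organ and a change in its RNA cannot be told apart. How the ground seedlings were pooled into RNA samples is given only as grouping by weight, so the p-values measure the spread between these libraries, which may be in part technical.

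G2 is a bacterial endophyte isolated from *G. uralensis* roots. Salt lowers water uptake and brings sodium and chloride into the plant, and seedlings answer it in part through carbohydrates: carbon fixation makes triose phosphates, starch and sucrose are broken down or rebuilt by amylases, glucosidases, invertase and sucrose synthase, and glycolysis (the EMP pathway) with the TCA cycle burns the hexoses. Pyruvate can leave this route through pyruvate decarboxylase and alcohol dehydrogenase, the steps of ethanol fermentation. Gene functions are absent from the deposited annotation. The enzyme names used below are those of the study's own list of carbohydrate genes, which covers 22 identifiers in these 3 pathways.

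The full-length cDNA libraries held 3657440, 3801940 and 3567247 reads in CK + G2 replicates 1 to 3 and 3755817, 3790142 and 3864217 reads in S + G2 replicates 1 to 3, within the range of 3303591 to 3929023 over all 12. Values are CPM, the reads of a gene per 1000000 mapped reads of the library, and a gene without a read has an upper limit of 3 reads, or 0.776 to 0.841 CPM in these 6 libraries (counting error only). Log2 CPM of libraries within CK + G2 correlated across genes at 0.940 to 0.959, those within S + G2 at 0.937 to 0.956, and those of different treatment at 0.915 to 0.951. The treatments were not cleanly parted on the first principal component of the 6 libraries (36.9% of the variation), where CK + G2 replicates 2 and 3 lay at -46.2 and -42.6, S + G2 replicates 1 and 2 at 25.8 and 61.2, and CK + G2 replicate 1 (6.93) and S + G2 replicate 3 (-5.12) lay between them. CK + G2 replicate 1 also differed from its group in green tissue markers: both Rubisco genes and GPD together took 3.04% of its reads, against 1.17% and 0.892% in replicates 2 and 3 and 2.64%, 3.79% and 2.09% in the S + G2 libraries. The main counts below are therefore given also without each of these libraries.

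In the S + G2 vs. CK + G2 comparison, 8 of 21664 genes tested changed at an adjusted p under 0.05 (limma on log2(CPM + 1), Benjamini-Hochberg adjustment over all genes tested), which is 0.0369%. Of these, 5 rose (0.0231%) and 3 fell (0.0138%). A looser rule, an unadjusted p under 0.05 together with a change of at least 1.5-fold, is called the study's criterion here, because the study used these cut-offs without stating which p was meant. It gave 1684 genes (7.77% of those tested), 558 higher (2.58%) and 1126 lower (5.2%) in S + G2. The study applied the cut-offs to DESeq results and here they were applied to the limma fit, so the calls differ in part. In S vs. CK, hexokinase *Glyur000324s00015431* (log2 fold change 0.52, under 1.5-fold) and Rubisco *Glyur000604s00024572* (unadjusted p = 0.139 by limma) did not pass here, though the study listed both as raised. An unadjusted p under 0.05 alone was found for 2171 genes (10%). Of 40576 transcripts tested, 14 had an adjusted p under 0.05 (0.0345%), 7 in each direction (0.0173% each), and 3567 (8.79%) passed the study's criterion, 1286 higher (3.17%) and 2281 lower (5.62%). Of the 14 transcripts, 12 were transcripts that the authors assembled from the reads, beside 27285 of the 40576 tested and 2673 of the 3567 past the study's criterion.

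The surplus of lower genes depended on the scaling of the libraries. The median log2 fold change of all genes tested was -0.09 on the deposited CPM and 0.00 after TMM or median-of-ratios scaling, and with these scalings the study's criterion gave 792 higher against 780 lower and 795 higher against 781 lower. edgeR's quasi-likelihood test gave 644 higher and 645 lower, and DESeq2 gave 738 higher and 672 lower. Thus 33.1% of the genes past the criterion were higher on the deposited CPM and 50.4% after TMM scaling. Beside this, the 100 most abundant genes of each library held 28.2%, 26.0% and 23.6% of the reads of CK + G2 replicates 1 to 3 and 27.5%, 29.9% and 27.9% of those of S + G2, and the part of these genes in the shift was not tested. Leaving out CK + G2 replicate 1 took the count past the criterion to 2518 (970 higher and 1548 lower), leaving out S + G2 replicate 3 took it to 2346, and leaving out any of the other libraries gave 1169 to 1359. At an adjusted p under 0.05, 40 genes were called without S + G2 replicate 3, with 7 of the 8 genes among them, and 1 to 3 genes without any of the other libraries.

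The annotated gene *Glyur001198s00038327* (Scaffold01198 from 36065 to 38146, 3 exons) rose most. It had no read in any CK + G2 library and stood at 83.3, 40.4 and 47.4 CPM in S + G2 replicates 1 to 3. Against the floor of 3 reads per library this is at least 69.8-fold higher in S + G2 (adjusted p = 0.000378 by limma). Having no read in CK + G2, the gene met the filter only through S + G2, where it is high. It left the fit with any S + G2 library left out, so the dependence of its call on these libraries could not be checked. In the 14 alternatives that included it, the adjusted p was 1.15e-12 to 0.0716. The call was lost in the limma fit of all 12 libraries (adjusted p = 0.0716). Without G2 it was scattered, at 12.6, 0 and 0 CPM in CK and 7.83, 0 and 6.11 CPM in S. The assembled locus ONT.14854 stood at 1.09, 0.789 and 0.841 CPM in CK + G2 and at 44.5, 24.0 and 37.5 CPM in S + G2, which gave a log2 fold change of 4.21 with a standard error of 0.28 (limma, adjusted p = 0.0014). Of the 8 genes it was the only one called in all 17 alternatives run, with an adjusted p of at most 0.0416. It was also the only gene with an adjusted p under 0.05 in both S + G2 vs. CK + G2 and S vs. CK, where it stood at 1.29, 2.49 and 3.03 CPM in CK and 13.1, 44.1 and 8.65 CPM in S.

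**Figure D1:**
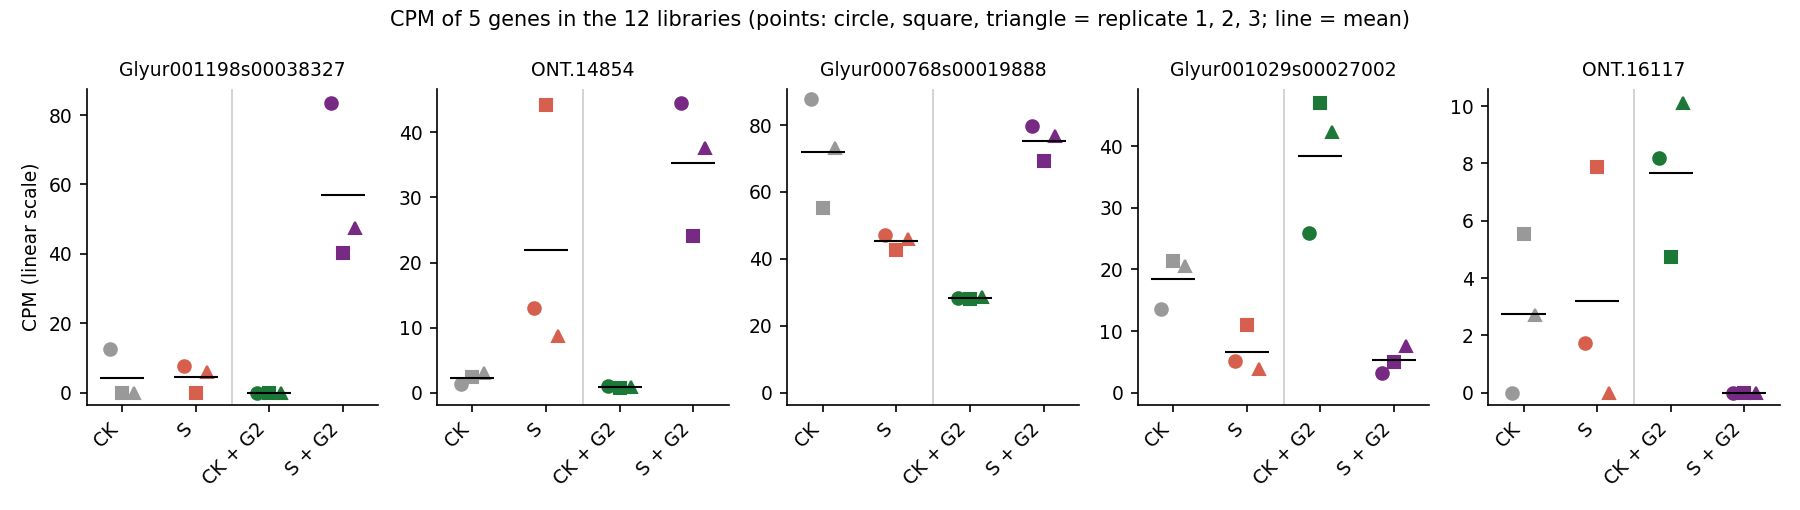
CPM (linear axis from 0) of 5 genes in the 3 libraries of each treatment, each point a library and each line the mean of 3. *Glyur001198s00038327* and ONT.16117 are at 0 in all 3 libraries of one inoculated group, and *Glyur000768s00019888* lies at 28.1 to 28.6 in CK + G2 and 69.1 to 79.6 in S + G2, while its order is the other way round without G2.

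The assembled locus ONT.16117 fell most. It stood at 8.20, 4.73 and 10.1 CPM in CK + G2 and had no read in the S + G2 libraries, which is at least 9.73-fold lower against the floor of 3 reads per library (adjusted p = 0.0413 by limma). This locus met the filter only through CK + G2 and left the fit with any CK + G2 library left out. Its call held in 6 of the 14 alternatives that included it. Without G2 it was scattered, at 0, 5.54 and 2.72 CPM in CK and 1.74, 7.87 and 0 CPM in S. *Glyur001029s00027002* (Scaffold01029 from 78094 to 80131, 3 exons) stood at 26.0, 47.1 and 42.3 CPM in CK + G2 and 3.20, 5.01 and 7.50 CPM in S + G2, so every S + G2 library lay below every CK + G2 library. Its log2 fold change was -2.68 (adjusted p = 0.0488 by limma, standard error 0.32), with the call held in 4 of 17 alternatives. Without G2 this gene had 13.6, 21.3 and 20.6 CPM in CK and 5.22, 10.97 and 3.82 CPM in S, again without overlap. In these 6 libraries none of its reads were on its annotated transcript.

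A further gene, *Glyur000768s00019888* (Scaffold00768 from 34528 to 35788, 2 exons), was chosen after its values were seen, because it was the only one of 22751 genes whose salt effect differed with G2 at an adjusted p under 0.05 (limma interaction over all 12 libraries, 0.0044%). It stood at 28.4, 28.1 and 28.6 CPM in CK + G2 and 79.6, 69.1 and 76.6 CPM in S + G2, which gave a log2 fold change of 1.37 with a standard error of 0.15 (limma, adjusted p = 0.0435). This call held in 10 of 17 alternatives and was lost in 5 of 6 cases with a library left out (adjusted p from 0.0454 to 0.369 over the 6). Without G2 it stood at 87.8, 55.1 and 73.3 CPM in CK and 47.3, 42.7 and 46.1 CPM in S, with a log2 fold change of -0.63. That fall was not called (adjusted p = 0.119 by limma). Neither pair of treatments overlapped and the directions were opposite. The difference of the salt effects was 2.0 on the log2 scale (standard error 0.23, adjusted p = 0.0153 by limma, 0.00856 by edgeR's test and 4.15e-12 by DESeq2). With 1 of the 12 libraries left out, the adjusted p lay between 0.00338 and 0.0934 and was under 0.05 in 6 of 12 cases, while the difference stayed between 1.85 and 2.18. DESeq2 called 50 genes for this term. The remaining 3 of the 8 genes, all annotated, had log2 fold changes of 2.57, 2.02 and -2.18.

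In the carbon fixation pathway, all 4 genes had a positive log2 fold change in S + G2 vs. CK + G2, with a median of 0.83, and RPI alone passed the study's criterion. RPI (*Glyur004632s00040687*, Scaffold04632 from 2885 to 3757), encoding ribose 5-phosphate isomerase of the Calvin cycle, stood at 126, 59.7 and 71.8 CPM in CK + G2 and 123, 170 and 115 CPM in S + G2. CK + G2 replicate 1 lay above S + G2 replicates 1 and 3, so the treatments overlapped. The log2 fold change was 0.71 (standard error 0.29, unadjusted p = 0.0344 and adjusted p = 0.466 by limma), and it no longer passed the criterion in 4 of 6 cases with a library left out.

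The Rubisco small chain genes, whose product is a subunit of the enzyme that binds CO2, followed the same library pattern. *Glyur000604s00024572* stood at 26328, 10129 and 7523 CPM in CK + G2 and 23125, 32629 and 18027 CPM in S + G2. *Glyur001973s00030832* stood at 787, 158 and 122 CPM in CK + G2 and 514, 1095 and 363 CPM in S + G2. GPD (*Glyur002595s00035357*), the chloroplast glyceraldehyde-3-phosphate dehydrogenase that uses NADP, stood at 3326, 1429 and 1277 CPM in CK + G2 and 2724, 4203 and 2472 CPM in S + G2. In each of these 3 genes CK + G2 replicates 2 and 3 lay below all S + G2 libraries and CK + G2 replicate 1 lay among them. The log2 fold changes were 0.92 for *Glyur000604s00024572*, with a 95% confidence interval of -0.92 to 2.77, 1.25 for *Glyur001973s00030832* (-0.28 to 2.77) and 0.74 for GPD (-0.29 to 1.77), none past the criterion. Without CK + G2 replicate 1, the highest CK + G2 library in each, they were 1.45, 2.08 and 1.17, all past the criterion. Without CK + G2 replicate 3, the lowest, they were 0.55, 0.74 and 0.48.

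**Figure D2:**
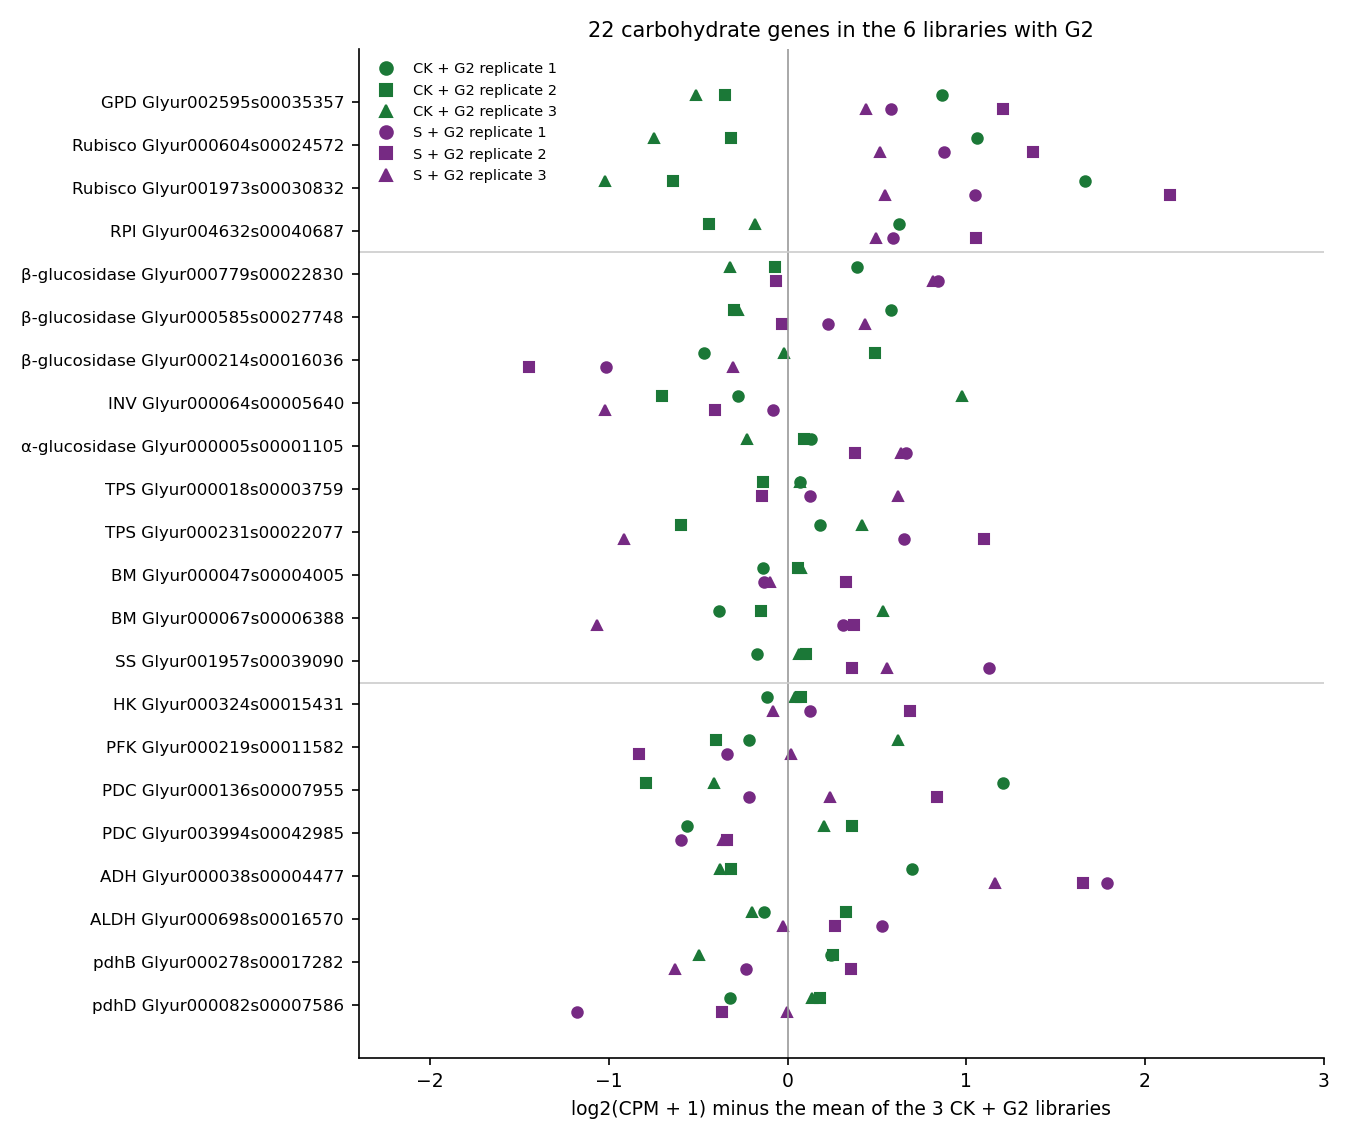
log2(CPM + 1) of 22 carbohydrate genes in each of the 6 inoculated libraries, less the mean of the 3 CK + G2 libraries of that gene (shapes mark replicates 1 to 3, lines part carbon fixation, starch and sucrose metabolism, and EMP-TCA). The S + G2 points of ADH, SS and α-glucosidase lie to the right of all their CK + G2 points, while CK + G2 replicate 1 lies among the S + G2 points of the 4 carbon fixation genes.

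In the starch and sucrose metabolism pathway, 7 of 10 genes had a positive and 3 a negative log2 fold change (median 0.20), SS passed the study's criterion as higher and a β-glucosidase gene as lower (2.58% and 5.2% of all genes tested), and 0 of 10 had an adjusted p under 0.05 by limma, edgeR's test or DESeq2, while 3 reached an unadjusted p under 0.05 by limma (10% of all genes tested). SS (*Glyur001957s00039090*, Scaffold01957 from 34519 to 41018, 14 exons) encodes sucrose synthase, which cleaves sucrose to UDP-glucose and fructose and can run in reverse. It stood at 104, 126 and 123 CPM in CK + G2 and 257, 151 and 173 CPM in S + G2, without overlap. The log2 fold change was 0.68 (standard error 0.22, unadjusted p = 0.0139 and adjusted p = 0.413 by limma), between 0.46 without S + G2 replicate 1 and 0.84 without S + G2 replicate 2, and it passed the criterion in 5 of 6 cases with a library left out. α-Glucosidase (*Glyur000005s00001105*, Scaffold00005 from 605785 to 609500, 5 exons), which releases glucose from maltose and short glucans, stood at 23.2, 22.6 and 17.9 CPM in CK + G2 and 34.1, 27.7 and 33.4 CPM in S + G2, also without overlap. Its log2 fold change of 0.56 (standard error 0.19, unadjusted p = 0.0153 and adjusted p = 0.419 by limma) was just under a 1.5-fold change, while edgeR's test gave 0.67 (unadjusted p = 0.00717) and DESeq2 0.67 (unadjusted p = 0.0125), past the criterion. It passed also in 3 of 6 cases with a library left out. In S vs. CK it was 0.01. The study had listed SS, α-glucosidase, TPS *Glyur000018s00003759* and PDC *Glyur003994s00042985* from S + G2 against S, so the S + G2 values of these 4 genes were among those that chose them and their p-values here are not independent of that choice.

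β-Glucosidase *Glyur000214s00016036* (Scaffold00214 from 213507 to 223749, 19 exons), of the enzymes that release glucose from β-glucosides, stood at 9.84, 20.0 and 13.7 CPM in CK + G2 and 6.39, 4.49 and 11.1 CPM in S + G2. Only S + G2 replicate 3 lay above a CK + G2 library. Its log2 fold change was -0.92 (standard error 0.35, unadjusted p = 0.028 and adjusted p = 0.45 by limma), and the criterion was no longer passed in 4 of 6 cases with a library left out. The other β-glucosidase genes had values of 0.21 (*Glyur000585s00027748*) and 0.53 (*Glyur000779s00022830*), the second on 1 to 7 reads per library. INV (*Glyur000064s00005640*), the invertase that splits sucrose to glucose and fructose, stood at 8.48, 6.05 and 21.6 CPM in CK + G2 and 9.85, 7.65 and 4.66 CPM in S + G2. Its log2 fold change of -0.50 came mostly with CK + G2 replicate 3 and was -0.01 without it.

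The primer pairs of the study's PCR for the starch and sucrose genes described with the clearest values above are printed here 5′ to 3′ in lower case because the deposited files hold no transcript sequence. They are 20 to 24 bases long, and no position was computed for them.
SS forward: tttgttgctttggctgttcg
SS reverse: ttagcagaaagatggcggttg
α-Glucosidase forward: taccactcctactccactcccact
α-Glucosidase reverse: caaagacttgcctgttgtggg
β-Glucosidase *Glyur000214s00016036* forward: ttcctaccccaccactaatgagat
β-Glucosidase *Glyur000214s00016036* reverse: ctctcacatctgctcctttcctt

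The gene BM *Glyur000067s00006388* (Scaffold00067 from 269733 to 273149, 4 exons), encoding a β-amylase, an enzyme that frees maltose from starch, had no salt effect that could be told from the spread of the inoculated libraries. It stood at 55.0, 65.0 and 104.6 CPM in CK + G2 and 89.7, 93.7 and 33.9 CPM in S + G2, with S + G2 replicate 3 lowest and the treatments interleaved. The log2 fold change was -0.13 with a 95% confidence interval of -1.02 to 0.77, and edgeR's test and DESeq2 gave 0.07. In S vs. CK the same gene had a log2 fold change of -2.80, which lies outside that interval. By treatment the means were 418 ± 33.8 CPM in CK, 74.8 ± 26.2 CPM in CK + G2, 72.4 ± 33.4 CPM in S + G2 and 59.4 ± 8.28 CPM in S (SD, n = 3 each). Every CK library lay above every library of CK + G2, S + G2 and S, whose values overlapped. Neither CK against CK + G2 nor S against an inoculated treatment was tested. The difference of the salt effects was 2.67 on the log2 scale (standard error 0.46, unadjusted p = 5.9e-05), with an adjusted p over all genes of 0.112 by limma, 0.105 by edgeR's test and 8.22e-06 by DESeq2. Without S + G2 replicate 3 it was 3.14 with an adjusted p of 0.00502 by limma, and with any of the other 11 libraries left out the adjusted p was 0.0984 to 0.491. The gene had been listed for its fall in S vs. CK, which is a part of this difference.

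The other β-amylase gene and both TPS genes, which encode trehalose 6-phosphate synthase/phosphatase, also had log2 fold changes nearer to 0 in the inoculated pair than in S vs. CK. The study had listed these genes for their values in S vs. CK, so that order is in part fixed by the choice. BM *Glyur000047s00004005* stood at 9.30, 10.8 and 10.9 CPM in CK + G2 and 9.32, 13.2 and 9.58 CPM in S + G2, with a log2 fold change of 0.03 with an interval of -0.47 to 0.54, against -0.84 in S vs. CK. TPS *Glyur000231s00022077* stood at 21.1, 11.8 and 24.9 CPM in CK + G2 and 29.6, 40.6 and 9.32 CPM in S + G2, with a log2 fold change of 0.28 against -1.66 in S vs. CK. TPS *Glyur000018s00003759* stood at 43.5, 37.6 and 43.5 CPM in CK + G2 and 45.3, 37.5 and 64.2 CPM in S + G2, with a log2 fold change of 0.20 against -0.73. In all 3 the inoculated treatments overlapped. The signs of the inoculated values were not stable, since each turned with at least 1 library left out.

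In the EMP-TCA pathway, ADH was higher in S + G2 and the other 7 genes did not pass the study's criterion, with 4 positive and 4 negative log2 fold changes among the 8 (median 0.04). ADH (*Glyur000038s00004477*, Scaffold00038 from 236908 to 241704, 9 exons), encoding an alcohol dehydrogenase of the class that also oxidizes S-(hydroxymethyl)glutathione, stood at 115, 56.3 and 53.8 CPM in CK + G2 and 245, 224 and 158 CPM in S + G2. Every S + G2 library lay above every CK + G2 library. The log2 fold change was 1.53 with a 95% confidence interval of 0.84 to 2.23 (standard error 0.31, unadjusted p = 0.000777). The adjusted p was 0.276 by limma, 0.333 by edgeR's test and 0.0117 by DESeq2, and over 17 alternatives it lay between 0.0117 and 0.678. ADH was the only one of the 22 genes that passed the study's criterion in 6 of 6 cases with a library left out, with log2 fold changes of 1.34 to 1.88. In S vs. CK its log2 fold change was 1.01, and the difference of the salt effects was 0.52 with an interval of -0.30 to 1.35.

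Neither gene of pyruvate decarboxylase, the step before ADH in ethanol fermentation, passed the criterion. PDC *Glyur003994s00042985* stood at 4.37, 9.21 and 8.13 CPM in CK + G2 and 4.26, 5.28 and 5.18 CPM in S + G2, with a log2 fold change of -0.43 (interval -1.11 to 0.25). In S vs. CK it was 1.52, with 3.86, 5.26 and 2.42 CPM in CK and 15.7, 12.1 and 10.2 CPM in S. The difference of the salt effects was -1.95 (standard error 0.42, unadjusted p = 0.000434, adjusted p = 0.299 by limma and 0.039 by DESeq2). PDC *Glyur000136s00007955* stood at 16.7, 3.42 and 4.77 CPM in CK + G2 and 5.59, 12.7 and 8.02 CPM in S + G2, with CK + G2 replicate 1 the highest of all. Its log2 fold change was 0.28, and 0.89 without that library.

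The remaining EMP-TCA genes had overlapping values. HK (*Glyur000324s00015431*), the hexokinase that phosphorylates glucose, had a log2 fold change of 0.24, with CK + G2 at 27.6 to 31.6 CPM and S + G2 at 28.2 to 48.8 CPM. PFK (*Glyur000219s00011582*), the 6-phosphofructokinase of glycolysis, had -0.38, with CK + G2 at 7.10 to 15.4 CPM and S + G2 at 5.01 to 9.83 CPM, and it overlaps a gene on the other strand with a mean of 8.79 CPM. ALDH (*Glyur000698s00016570*), an aldehyde dehydrogenase, had 0.26. Of the pyruvate dehydrogenase complex, which feeds the TCA cycle, pdhB (*Glyur000278s00017282*, the E1 beta subunit) had -0.17 and pdhD (*Glyur000082s00007586*, dihydrolipoamide dehydrogenase) had -0.52, the latter with 21.6, 31.0 and 30.0 CPM in CK + G2 and 11.4, 20.8 and 27.2 CPM in S + G2. PFK, pdhB, pdhD and PDC *Glyur003994s00042985* thus had negative values with G2, and positive ones without G2 (1.11, 0.61, 0.75 and 1.52), for which they had been listed.

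Over the 22 genes together, 15 had a positive and 7 a negative log2 fold change (median 0.25, against -0.09 for all genes tested). At the study's criterion 3 were higher (ADH, SS and RPI) and 1 was lower, beside 2.58% and 5.2% of all genes tested. ADH, SS and α-glucosidase were higher without overlap between the treatments and 0 were lower, beside 4.45% and 10.6% of all genes tested. The study had listed SS and α-glucosidase as higher in S + G2 than in S. Their high S + G2 values thus helped to choose them, and the shares of all genes are no fair background for them. Of the 22 genes, 0 had an adjusted p under 0.05 by limma or edgeR's test and 1, ADH, by DESeq2, while 5 reached an unadjusted p under 0.05 with limma, beside 10% of all genes tested. The sign was that of S vs. CK in 15 of 22, beside 61.9% of all genes tested in both: in 4 of 4 carbon fixation genes, 7 of 10 starch and sucrose genes and 4 of 8 EMP-TCA genes. The difference of the salt effects had an adjusted p under 0.05 for 0 of 22 genes by limma or edgeR's test, for 2 by DESeq2 (BM *Glyur000067s00006388* and PDC *Glyur003994s00042985*), and an unadjusted p under 0.05 for 8 by limma, beside 6.72% of all genes tested. The study chose 20 of these genes for their size in S vs. CK on these same libraries, so a smaller value in the inoculated pair is in part fixed by that choice and the count of 8 is not independent evidence.

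Without CK + G2 replicate 1, 8 of the 22 genes were higher at the criterion (4.56% of all genes tested) and 2 lower (7.28%). Those higher were both Rubisco genes, GPD, RPI, SS, α-glucosidase, ADH and PDC *Glyur000136s00007955*, and those lower were β-glucosidase *Glyur000214s00016036* and PDC *Glyur003994s00042985*. Without S + G2 replicate 3, 4 were higher (3.58%) and 2 lower (7.45%), with TPS *Glyur000231s00022077* added to ADH, SS and RPI, and pdhD to the β-glucosidase gene. Treatments then did not overlap in 10 higher and 3 lower genes without CK + G2 replicate 1 (10.9% and 25.2% of all genes tested) and in 5 higher and 2 lower genes without S + G2 replicate 3 (9.63% and 19.0%). Leaving out other libraries took genes away. Without S + G2 replicate 1 ADH alone passed the criterion, and without CK + G2 replicate 3 only ADH and SS. Without replicate 2 of either treatment ADH, SS and α-glucosidase passed. Of all genes tested, 5.51% to 6.4% passed in these 4 fits. In carbon fixation, 1 of 4 genes passed the criterion with CK + G2 replicate 1 in the fit and 4 of 4 without it. This library was the highest of CK + G2 in all 4 genes, so leaving it out raises their log2 fold changes by construction. It had also been set apart in part by its reads of the Rubisco genes and GPD, so 4 of 4 is no independent evidence.

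**Figure D3:**
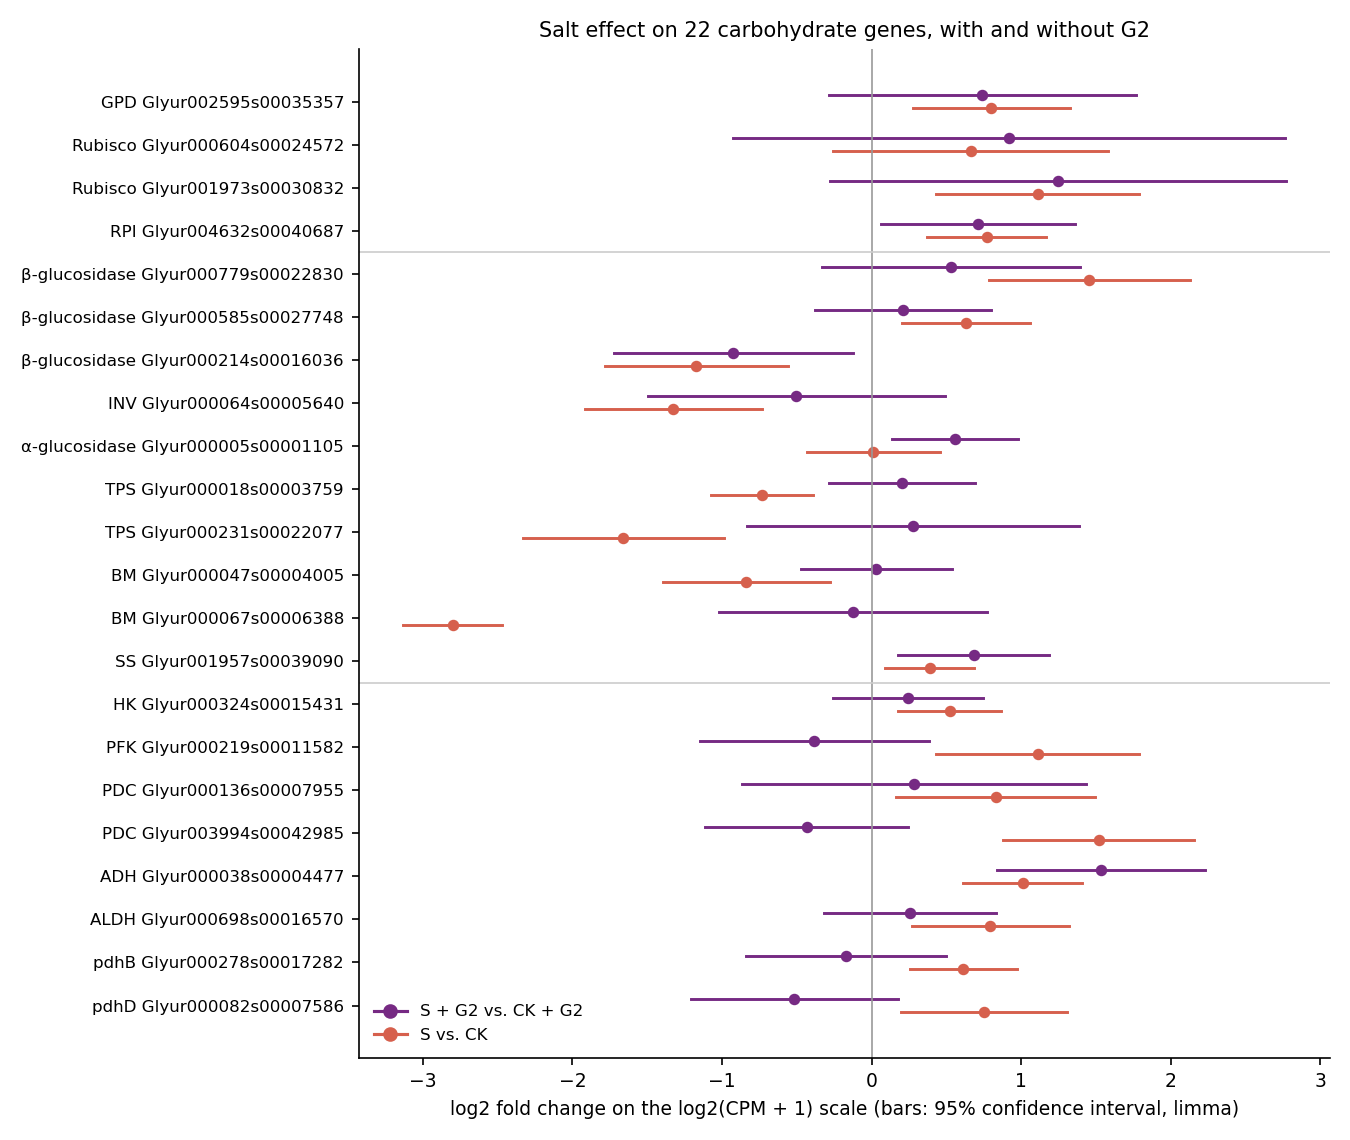
Log2 fold change by salt of the 22 genes on the log2(CPM + 1) scale, with G2 (S + G2 vs. CK + G2) and without G2 (S vs. CK), each from its own 6 libraries; bars are 95% confidence intervals by limma. The carbon fixation genes lie at 0.71 to 1.25 with G2 and 0.66 to 1.11 without, while BM *Glyur000067s00006388* lies at -0.13 and -2.80 with intervals that do not meet.

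The transcript table gave a closer view of these genes once the assembled transcripts were assigned to them. Assembled transcripts carry locus names that no deposited file pairs with an annotated gene, but for 14084 of 14597 genes with reads outside their annotated transcripts exactly 1 assembled locus had the missing reads in all 12 libraries, among them all 19 of the 22 genes that have such reads. This pairing was made after the data were seen. The 22 genes had 70 transcripts, of which 63 were tested. At the study's criterion 12 were higher and 1 was lower, in 5 genes, beside 3.17% and 5.62% of all transcripts tested, and 15 had an unadjusted p under 0.05, beside 9.56%. An adjusted p under 0.05 was found for 0 by limma or edgeR's test and for 2, both of ADH and described next, by DESeq2. Without CK + G2 replicate 1, 20 were higher and 2 lower at the criterion (4.96% and 7.08% of all transcripts tested), and without S + G2 replicate 3, 13 and 1 (3.96% and 7.6%). The transcripts of 1 gene share its RNA and are not replicates.

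ADH had 14 transcripts, of which 12 were tested, all 12 with a positive log2 fold change and 8 past the criterion. Its leading transcript, ONT.2029.6, held 37.8% of its reads, with 137, 67 and 60 reads in CK + G2 and 474, 278 and 196 in S + G2 (log2 fold change 1.75). ONT.2029.11 had 17, 5 and 20 reads in CK + G2 and 155, 57 and 64 in S + G2 (2.37, unadjusted p = 0.000786). Both were apart between the treatments and called by DESeq2, whereas ONT.2029.8, with 121, 44 and 27 reads against 65, 236 and 132, overlapped. The annotated ADH transcript had at most 1 read in a library. SS was higher without overlap in all 3 of its transcripts (14.8% of all transcripts tested did not overlap, in either direction), with log2 fold changes of 1.06 for ONT.15935.5, 0.92 for the annotated transcript and 0.57 for ONT.15935.1, which held 76.7% of the reads. In BM *Glyur000067s00006388* the 4 transcripts lay between -0.82 and -0.02, and ONT.3199.2 held 92.8% of the reads.

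In the Rubisco gene *Glyur000604s00024572* the annotated transcript and the 6 assembled ones had opposite signs, as had transcripts of BM *Glyur000047s00004005*, TPS *Glyur000231s00022077* and ALDH. Its leading transcript, ONT.11278.4, had 50698, 17878 and 16103 reads in CK + G2 and 54163, 75144 and 41884 in S + G2, with a log2 fold change of 1.13. The annotated transcript had 13061, 9359 and 435 reads in CK + G2 and 1194, 1722 and 1008 in S + G2, which gave -1.61. CK + G2 replicates 1 and 2 were high in the annotated transcript and CK + G2 replicate 3 was lowest of all. Neither of these transcripts passed the criterion, while ONT.11278.1 of the same gene did (1.16, unadjusted p = 0.0438 by limma). For 15 of the 22 genes the annotated transcripts held under 50% of the reads.

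**Figure D4:**
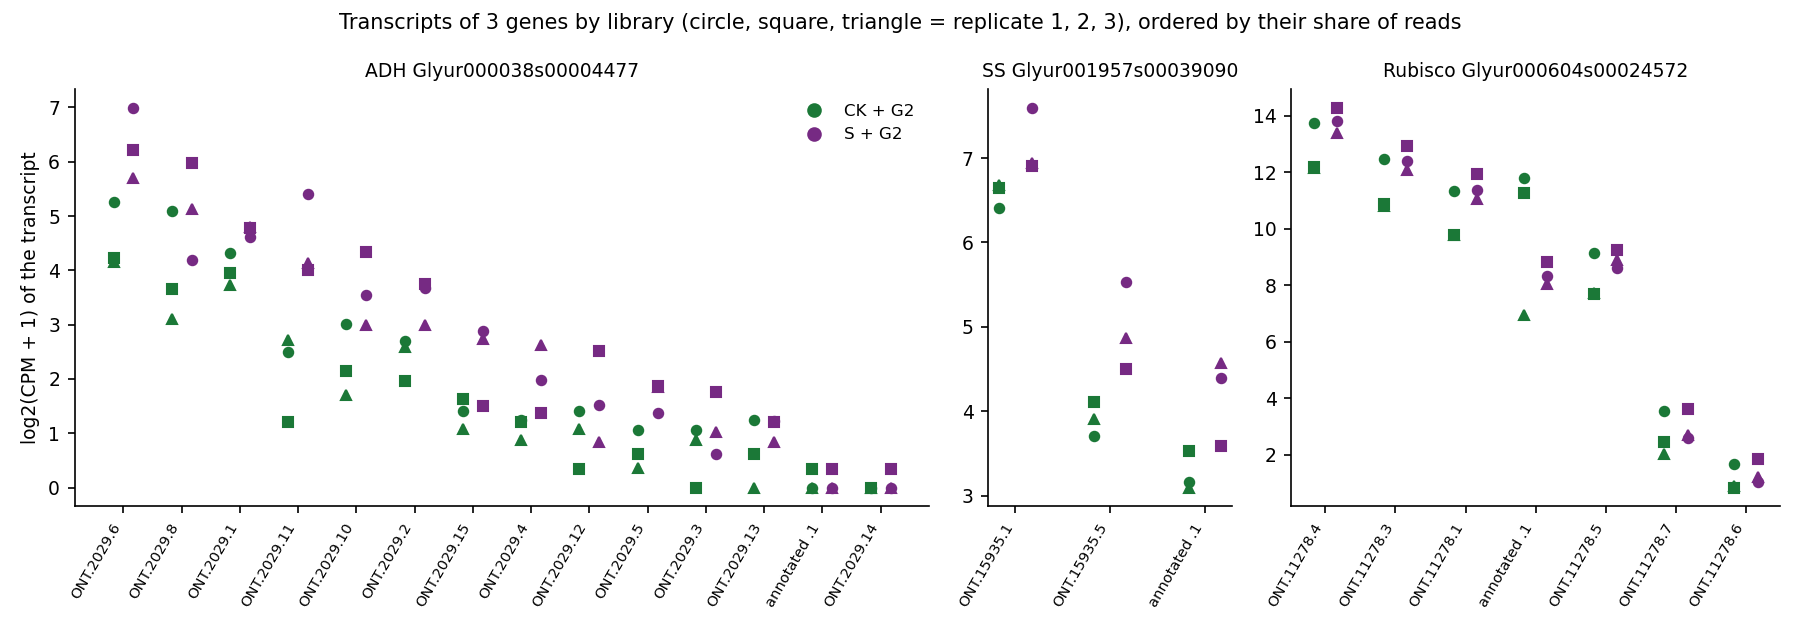
log2(CPM + 1) of each transcript of ADH, SS and the Rubisco gene *Glyur000604s00024572* in the 3 CK + G2 and 3 S + G2 libraries, in order of the share of the gene's reads. Of the ADH transcripts 12 had positive log2 fold changes, those of SS do not overlap between the treatments, and the annotated Rubisco transcript is highest in CK + G2 replicates 1 and 2.

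Across the whole transcriptome the salt effect with G2 was compared with that without G2, on libraries that neither comparison shares. The comparison is on the deposited CPM, where the median log2 fold change of all genes tested was -0.09 with G2 and -0.05 without. Shared signs and the genes shared at the study's criterion were not counted again with other scalings, so the part of this shift in them was not tested. S vs. CK gave 418 of 21543 genes at an adjusted p under 0.05 (1.94%), 77 higher (0.357%) and 341 lower (1.58%). The study's criterion gave 2321 (10.8%), 794 higher (3.69%) and 1527 lower (7.09%), and an unadjusted p alone 3300 (15.3%). Of 337 genes that fell in S vs. CK and were tested in both, 300 (89%) had a negative value with G2, at a median of -0.48 against -1.48 without G2. Of 75 genes that rose, 60 (80%) had a positive value, at a median of 0.45 against 1.09. Over all 21064 genes tested in both the sign was shared by 61.9%. In the other direction, the 1105 genes lower and 539 higher at the criterion with G2 had medians of -0.88 and 0.85 there, and of -0.35 and 0.30 in S vs. CK, with 77.5% and 72.4% sharing the sign. In either direction the median was smaller in the comparison that had not chosen the genes, so it is no measure of a weaker salt effect under G2.

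On the deposited CPM, genes past the study's criterion in both comparisons with the same direction numbered 386 (106 higher and 280 lower), 22.9% of those with G2 and 16.6% of those without, and 29 passed in opposite directions. Without CK + G2 replicate 1 these counts were 505 and 41, and without S + G2 replicate 3 they were 475 and 64. At an adjusted p under 0.05 ONT.14854 alone was shared, 12.5% of the 8 and 0.239% of the 418. Groups did not overlap in 15.1% of genes tested with G2 and 20.4% of those tested without. In both at once and in the same direction this was found for 659 of 21064 genes and in opposite directions for 102, *Glyur000768s00019888* among the latter. Without CK + G2 replicate 1 they were 1440 and 267 of 20838, and without S + G2 replicate 3 they were 1123 and 233 of 20823. A gene called with or without G2 alone is not shown to differ, since the difference was called for 1 gene by limma.

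**Figure D5:**
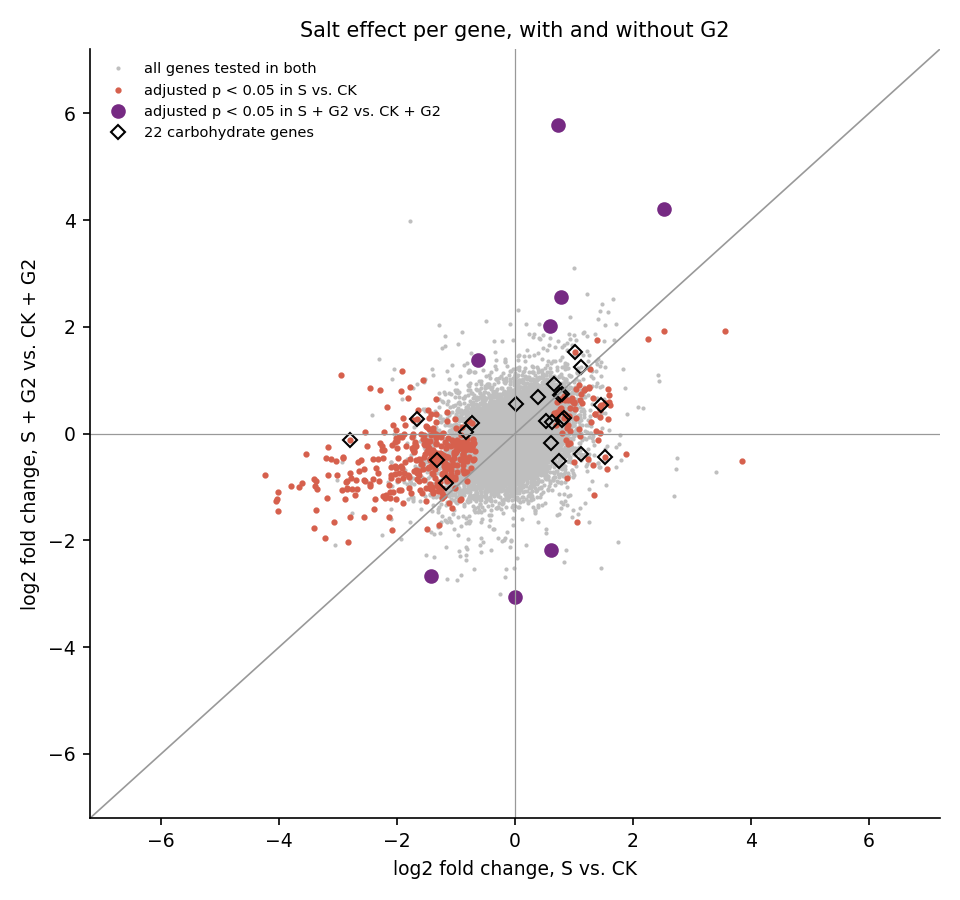
Log2 fold change by salt of 21064 genes without G2 (horizontal) and with G2 (vertical), each point a gene and the diagonal equal effects. Genes with an adjusted p under 0.05 in S vs. CK lie on the side of the same sign in 89% (lower) and 80% (higher), nearer to 0 with G2, and the 22 carbohydrate genes are open diamonds.

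The genes past the study's criterion with G2 differed little from all genes tested in level. The median was 15.9 CPM for those higher, 10.7 CPM for those lower and 13.1 CPM for all. Assembled loci made up 8.6% of those higher and 8.61% of those lower, against 5.36% of all genes tested. Genes of a single exon made up 19.2% and 16.9%, against 12.4%. Of the genes higher at the criterion that had a tested neighbour on their scaffold, 9.59% (45 of 469) stood next to another such gene, against 4.31% of all genes with a tested neighbour. For lower genes the shares were 9.54% (90 of 943) and 8.35%. These are descriptions without a test. At the extreme, 4 genes had no read in any CK + G2 library and at least 1 CPM in every S + G2 library, and 3 genes the reverse.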

How the data were processed

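Reads that were short, of low quality or ribosomal were discarded by the authors, full-length ones were polished and mapped, and the deposited values are CPM per gene and transcript (reads per 1000000 mapped). minimap2 is named in the submitters' processing notes without a version. Neither the genome release nor the use of strand in counting is given in the sources used here. By the annotation, 11 of the 22 carbohydrate genes overlap a gene on the other strand. The paper's methods name an Illumina sequencer, while the sample records name a nanopore run. The deposited CPM were whole multiples of 1 read in 100% of values above 0 (within 0.01), so reads were recovered. The gene table holds 29436 genes, 28050 annotated and 1386 assembled.

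A count test had been foreseen only for raw counts. limma 3.58.1 (trend, R 4.3.3) was fitted to log2(CPM + 1) on the deposited scale. Genes needed 1 CPM or more in 3 or more libraries, out of the 6 libraries of a comparison or all 12 for the interaction of salt and G2. Fold changes on this scale understate those of low genes. An exact permutation test of 3 against 3 libraries cannot go below p = 0.1. Alternatives were edgeR 4.0.16 and DESeq2 1.42.0 on the recovered reads, TMM and median-of-ratios scaling, other filters and pseudocounts, all 12 libraries, a replicate block and each library left out. Scripts were tested on simulated data.

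Named are the 22 genes the study identifies, the 2 genes that rose and the 2 that fell most (adjusted p under 0.05, at least 5 CPM in the higher group, no overlap), and 1 gene chosen after its values were seen. The comparison, the genes and the tests were chosen with earlier results of these data known.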

Additional observations from a re-analysis of the deposited data

Results flagged for a closer look

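*Glyur000768s00019888* was set apart because its values lay in opposite directions by salt with and without G2. The tested difference between the salt effects was 2.0 on the log2 scale (adjusted p = 0.0153 by the limma interaction). It was higher in 3 of 3 S + G2 libraries and lower in 3 of 3 S libraries than in every control library of the same inoculation. The fall without G2 was not called by itself (adjusted p = 0.119 by limma). Among 22751 genes tested for this term it was the only one called by limma. The spread of its 3 CK + G2 values (SD 0.228 CPM at a mean of 28.4 CPM) was small beside that of CK (SD 16.4 CPM at a mean of 72.0 CPM). No function is given for the gene in the deposited annotation, and no explanation was tested.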

How the results depend on the processing

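The 8 genes called by salt with G2 became 3 with edgeR, 115 with DESeq2, 3 with TMM, 3 with median-of-ratios scaling, 2 with a mean of at least 10 reads, 5 with a pseudocount of 0.5 or 0.1, 5 with all 12 libraries, 2 with the replicate block, and 1 to 40 with a library left out. The 14 transcripts became 5 with edgeR, 189 with DESeq2, 6 with a mean of at least 10 reads, 6 with a pseudocount of 0.1, 7 with the block, and 3 to 67 with a library left out. The 418 genes of S vs. CK became 671 with DESeq2, 221 with all 12 libraries, and 167 to 336 with a library left out. The 1 interaction gene became 50 with DESeq2 and 0 to 10 with a library left out; the 1 gene shared by both salt comparisons became 0 with edgeR, 16 with DESeq2 and 0 to 2 with a library left out. The causes of these moves were not tested. The counts at the study's criterion stayed within 1.5 times (1169 to 2518 genes, 2480 to 4741 transcripts). The deviations of same-numbered libraries correlated at -0.17, -0.21 and 0.01, so no shared deviation by replicate number was seen. With 3 libraries a treatment, this cannot settle whether the samples were paired.

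Of 468 alternative values for named genes, 423 kept direction and call, 29 lost and 1 gained the call, and 15 reversed, in genes that were not called. The 22 carbohydrate genes had no call to lose, so all 29 losses fell on the other named genes. Those calls held in 13 of 14 alternatives for *Glyur001198s00038327*, 17 of 17 for ONT.14854 and 10 of 17 for *Glyur000768s00019888*. They held in 6 of 14 for ONT.16117 and 4 of 17 for *Glyur001029s00027002*. On annotated transcripts alone the log2 fold change was -1.61 for *Glyur000604s00024572*, -0.066 for *Glyur000231s00022077* and -0.14 for *Glyur000047s00004005*, which was -0.015 after thinning to the shallowest library (chosen after seeing the data). BM *Glyur000067s00006388* was 0.072 with edgeR and 0.075 with DESeq2. With a library left out the ranges crossed 0 for *Glyur000018s00003759* (-0.0080 to 0.37), *Glyur000231s00022077* (-0.13 to 0.88), *Glyur000047s00004005* (-0.12 to 0.11), *Glyur000067s00006388* (-0.38 to 0.34), *Glyur000136s00007955* (-0.11 to 0.89) and *Glyur000278s00017282* (-0.43 to 0.058). Genes at 0 in 1 treatment left the filter when a library of the other was dropped. The number of libraries, 3 a treatment, limits the precision, and depth limits genes near the floor of 3 reads.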
